A study of Homo sapiens with 4 samples.

Results

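The genes of purine, pyrimidine and deoxynucleotide synthesis were compared in Jurkat cells with a short hairpin RNA against SOX4 (sh-SOX4, 2 libraries) and in control cells of the same line whose hairpin was scrambled (sh-Scb, 2 libraries). Jurkat is an established human cell line from an acute leukemia of T cells (T-ALL), and SOX4 is a transcription factor of early lymphocyte development. The set was given as 33 gene symbols, and all 33 were found among the 64252 gene IDs of the deposited count table. They comprised 12 genes of purine synthesis, 8 of pyrimidine synthesis, 6 of deoxynucleotide (dNTP) supply and 7 of salvage. RNA was sequenced as TruSeq libraries of total RNA. No treatment or time is given for either group, nothing in the labels says that the libraries came from separate cultures, and the target site of the hairpin was not given in the sources used here.

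Cells build purine rings step by step on a ribose phosphate donor, PRPP, whereas the pyrimidine ring is made first and then joined to PRPP. Salvage enzymes return free bases and nucleosides to the same pools, and ribonucleotide reductase converts ribonucleotides to the deoxy forms used for DNA. Lymphocytes depend strongly on these routes: loss of the salvage enzymes ADA or PNP causes immune deficiency, and inhibitors of IMPDH, DHODH and thymidylate synthesis are used against dividing lymphocytes. MYC is known to bind and activate many genes of the synthetic routes, and E2F factors many genes of dNTP supply.

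Library totals ran from 29093287 to 36636219 counts. Levels are given as CPM, counts scaled to a common library size, on which 3 counts amount to 0.0819 to 0.103. The level of SOX4 itself went from 274 ± 4.26 to 195 ± 5.61 CPM (SD, n = 2), so that 71.1% of the control level was left. In bulk RNA, fewer cells of a type and less RNA per cell cannot be told apart. All 10 T cell markers looked up were counted, with summed levels of 1642 to 1679 CPM in sh-Scb and 1901 to 1992 CPM in sh-SOX4. Of these markers, 6 were called higher and 1 lower, and 3 were not called. Per exonic length (TPM, explained below), the sums overlapped, at 3610 and 3428 in sh-Scb against 3275 and 3595 in sh-SOX4. Among 28 markers of T and other cells, LYZ, HBB and COL1A2 were at 0 counts in all 4 libraries. COL1A1, the other fibroblast marker, was counted, at 24.4 and 25.8 CPM in sh-Scb against 17.2 and 17.4 CPM in sh-SOX4. It was called lower, with a log2 fold change of -0.54 (edgeR adjusted p 0.00132). The B cell list, with 3 of 4 genes tested, summed to 66.5 to 68.3 CPM in sh-Scb and 13.8 to 14.4 CPM in sh-SOX4, nearly all of it CD79A. The 3 tested myeloid markers of 5 summed to 1.72 to 2.77 CPM over the libraries. The part of these markers in the results below was not tested.

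Most genes of both synthetic routes were higher in sh-SOX4, while the main enzymes of dNTP supply stayed near their control level in CPM and salvage genes went both ways. Of the 33 genes, 32 passed the filter on low counts. Of these 32, 21 rose and 3 fell in edgeR's quasi-likelihood test at a Benjamini-Hochberg adjusted p under 0.05, which is 75.0% called. Over all 19897 IDs tested, 44.1% were called, 23.2% as higher and 20.9% as lower. Among the 10797 IDs with at least 10 CPM in 2 libraries, the share was 66.2%, with 33.1% higher; 31 members passed that filter, and 77.4% of them were called, 64.5% as higher. Read against this second background, the share of members called lay little above that of other well-expressed genes, and the share called higher lay further above it. The median log2 fold change (sh-SOX4 over sh-Scb) was 0.45 over the members and -0.010 over all tested IDs. With the filter of 10 CPM in 2 libraries, the medians were 0.37 and 3.05e-06. Fold changes below are relative to TMM scaling, under which 4609 IDs were higher and 4166 lower. With scaling to library totals the median of all IDs moved to -0.11 and that of the members to 0.35. Of all IDs, 3629 were then higher and 5260 lower.

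Groups did not overlap for 25 members that were higher and 4 that were lower, against 36.3% and 36.6% of all tested IDs. A change of at least 2-fold with a call was seen for 5 members upward (NME1, SAMHD1, APRT, ATIC and UMPS) and 1 downward (TK1), where 3.39% and 6.07% of all IDs did so. ATIC and UMPS passed 2-fold narrowly. Their log2 fold changes were 0.93 and 0.93 with library totals, and 0.97 and 0.96 with the filter of 10 CPM, which is under 2-fold. Members with a call had standard errors of 0.040 to 0.348 on the log2 scale, the largest being that of SAMHD1, the least counted.

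**Figure D1:**
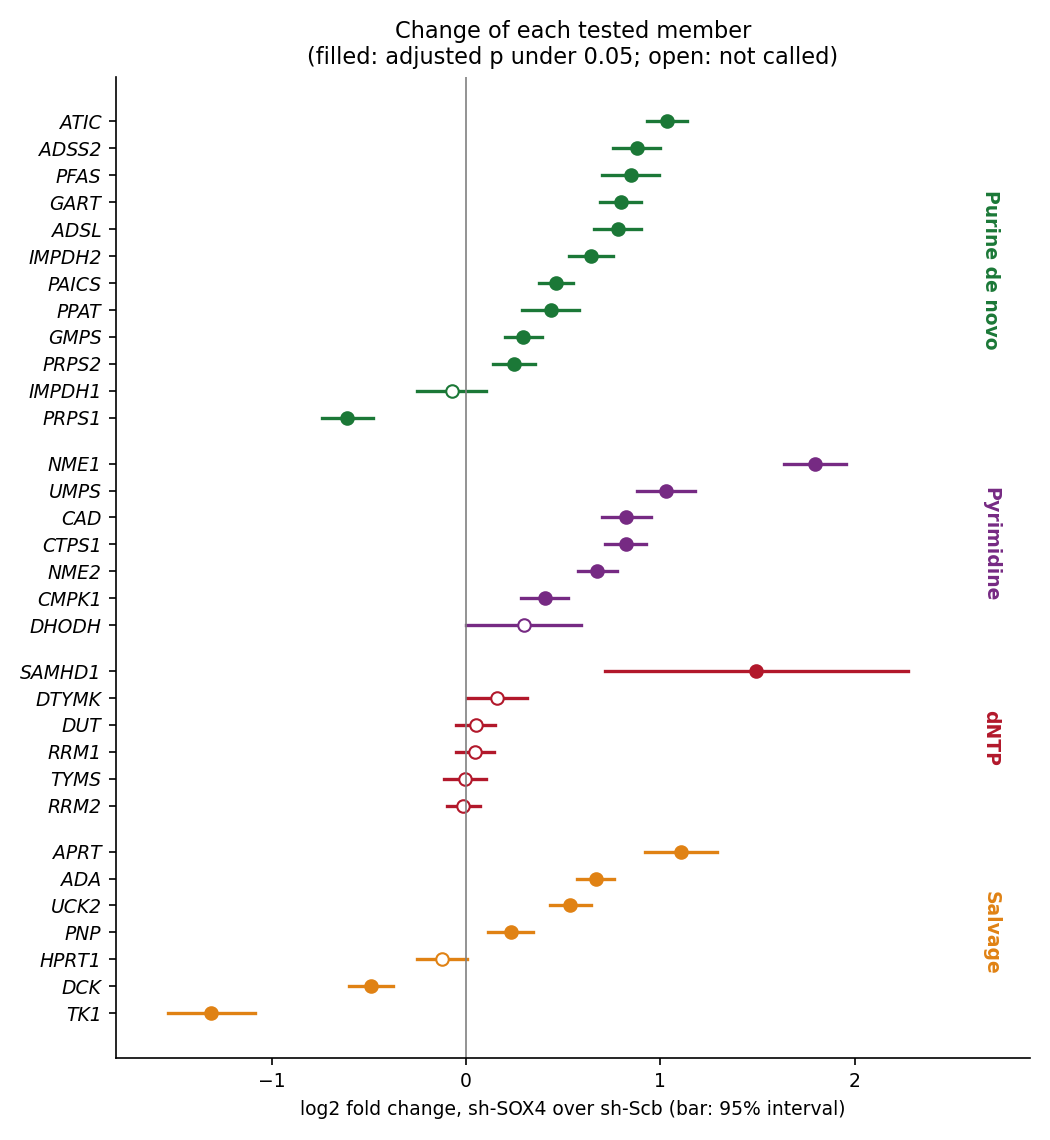
log2 fold change of each of the 32 tested members, sh-SOX4 over sh-Scb, on the x axis, with genes grouped by branch; bars are 95% intervals from the edgeR model (n = 2 libraries per group), filled points have an adjusted p under 0.05 and open points do not. Purine and pyrimidine genes lie mostly to the right of 0, 5 of the 6 dNTP genes lie near 0 without a call, and TK1, at -1.31, lies farthest to the left.

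The purine branch makes PRPP, builds inosine monophosphate (IMP) and splits it into adenine and guanine nucleotides. Of its 12 genes, 10 rose, PRPS1 fell and IMPDH1 did not pass, with a median log2 fold change of 0.55. The PRPP synthetases that open the pathway moved in opposite directions. PRPS1 was at 106 and 97.0 CPM in the sh-Scb libraries and at 66.6 and 66.3 CPM in the sh-SOX4 libraries, a log2 fold change of -0.61 (SE 0.059) with an edgeR adjusted p of 2.03e-05. PRPS2 was at 95.9 and 98.1 CPM in sh-Scb and at 116 and 115 CPM in sh-SOX4, a log2 fold change of 0.25 (SE 0.048) with an edgeR adjusted p of 0.00209. Neither pair of groups overlapped. The call for PRPS2 did not hold against a minimum change of 1.2-fold.

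PPAT, the amidotransferase of the committed step, rose from 78.0 ± 5.07 to 105 ± 7.10 CPM (SD, n = 2), and PAICS, a bifunctional enzyme of the middle of the pathway, from 398 ± 9.49 to 548 ± 5.65 CPM (SD, n = 2). Their log2 fold changes were alike in size, 0.44 (SE 0.066) and 0.46 (SE 0.040). These genes lie head to head on chromosome 4 (PPAT from 56393362 to 56435615 on the minus strand, PAICS from 56435741 to 56464579 on the plus strand, GRCh38). The RefSeq promoter windows of both genes (250 bases before to 50 after a start, GRCh38.p14) hold the same CACGTG, the E-box letters that MYC and its partner MAX are known to bind. It lies 182 bases before the PPAT start and at base 41 of the PAICS transcript. The letters are shown in capitals on the PPAT strand, at chr4:56435780-56435809, because both genes rose and share them.
PPAT and PAICS: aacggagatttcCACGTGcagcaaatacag

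The enzymes that follow PPAT up to IMP all rose. GART, a trifunctional enzyme, was at 98.6 and 96.3 CPM in the sh-Scb libraries and at 170 and 168 CPM in the sh-SOX4 libraries, a log2 fold change of 0.80 (SE 0.047). PFAS, the amidotransferase that follows, went from 44.3 and 46.0 CPM to 77.6 and 84.7 CPM, a log2 fold change of 0.85 (SE 0.066). ADSL, adenylosuccinate lyase, which also acts in the step from IMP to AMP, went from 75.4 and 71.1 CPM to 123 and 128 CPM, a log2 fold change of 0.78 (SE 0.054). In each of the 3 genes every sh-SOX4 library was above both sh-Scb libraries. Of the exonic bases of ADSL, 18.9% also lie in another annotated gene, so its level is uncertain to that extent.

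ATIC, which performs the final 2 steps to IMP, changed most in this branch. It was at 97.4 and 96.1 CPM in the sh-Scb libraries and at 199 and 197 CPM in the sh-SOX4 libraries. The fold change was 2.05, a log2 value of 1.03 (SE 0.046), with an edgeR adjusted p of 1.36e-07. Replicates of either group differed by under 2 CPM, far less than the groups did. The ATIC window holds CACGTG at 46 bases before the start and again at base 30 of the transcript. Both sites are printed because ATIC is the most changed purine gene, with the E-box in capitals (plus strand, chr2:215312001-215312030 and chr2:215312076-215312105, GRCh38.p14). The GENCODE model of ATIC begins upstream of this RefSeq start, at 215311817.
ATIC upstream site: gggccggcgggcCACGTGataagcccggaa
ATIC transcript site: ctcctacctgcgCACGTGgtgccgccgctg

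Beyond IMP, the adenine side is opened by ADSS2, adenylosuccinate synthase, and the guanine side by IMPDH followed by GMPS. ADSS2 was at 66.5 and 69.2 CPM in sh-Scb and at 128 and 121 CPM in sh-SOX4, a log2 fold change of 0.88 (SE 0.055). IMPDH2, the isoform that predominates in dividing lymphocytes, rose from 222 ± 13.9 to 347 ± 8.26 CPM (SD, n = 2), by 0.64 (SE 0.051) on the log2 scale. IMPDH1 was at 57.7 and 58.6 CPM in sh-Scb and at 51.0 and 59.6 CPM in sh-SOX4; the groups overlapped, and the log2 fold change of -0.074 had a 95% interval of -0.25 to 0.10. GMPS, GMP synthetase, rose from 182 ± 2.03 to 223 ± 2.96 CPM (SD, n = 2), a log2 fold change of 0.29 (SE 0.043) that was not called against a minimum of 1.2-fold. IMPDH1 has 10 pseudogene copies by current symbols, which held 1.17% of the counts of gene and copies together. The largest such share of any member was 2.93%, for the 2 copies of PRPS1.

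**Figure D2:**
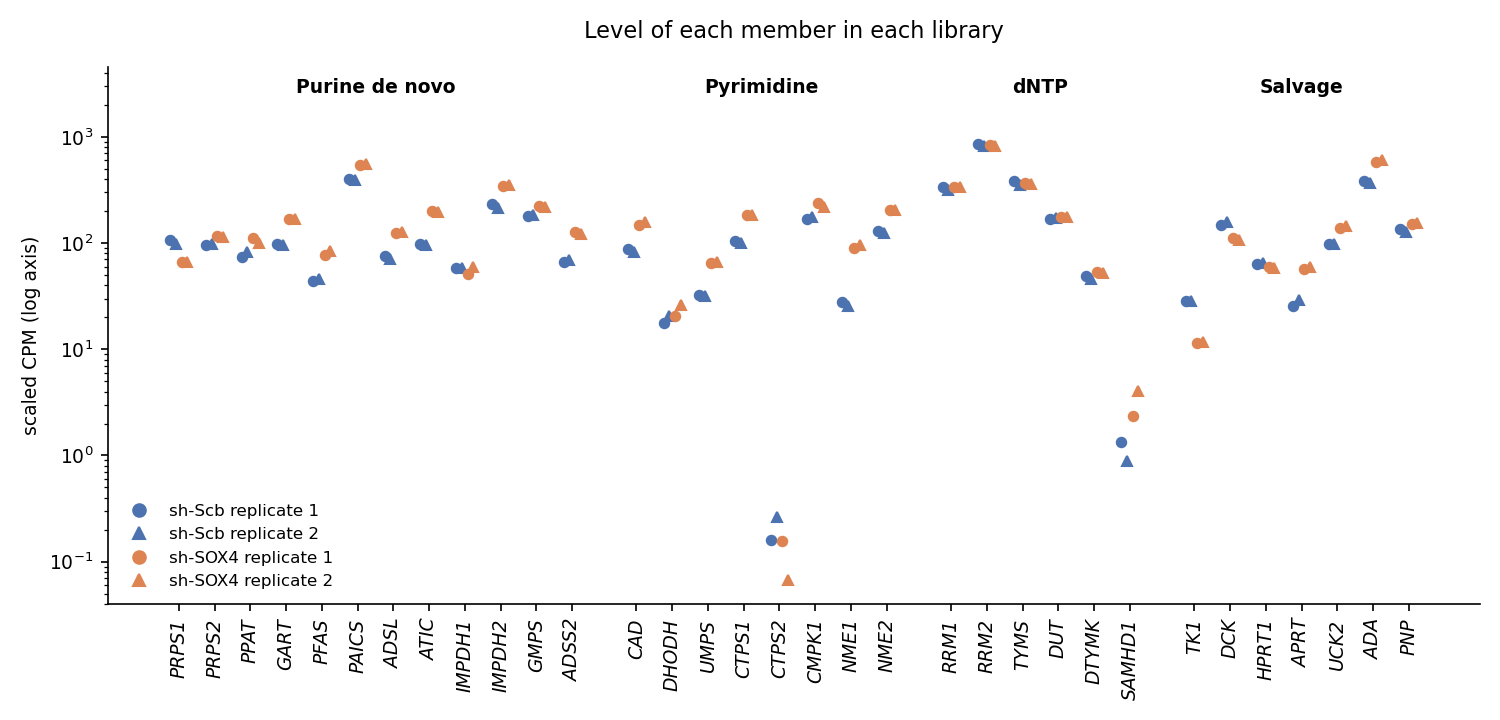
Level of each of the 33 members in each of the 4 libraries, as scaled CPM on a log axis, by branch; circles are replicate 1 and triangles replicate 2 of sh-Scb (blue) and sh-SOX4 (orange). Replicates mostly lie on top of each other, CTPS2 and SAMHD1 stand far below all other members, and heights of different genes are not scaled for gene length.

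In the pyrimidine branch 6 of 7 tested genes rose and none fell, with a median log2 fold change of 0.82. At an unadjusted p under 0.05 the count of lower genes was again 0 in edgeR, DESeq2 and limma-voom. CAD, the trifunctional enzyme of the first steps, was at 88.7 and 82.7 CPM in sh-Scb and at 147 and 157 CPM in sh-SOX4, a log2 fold change of 0.83 (SE 0.057). DHODH, the mitochondrial step, was at 17.6 and 20.6 CPM against 20.8 and 26.1 CPM. Its groups barely separated, and the log2 fold change of 0.30 (95% interval 0.00086 to 0.59) did not pass (edgeR adjusted p 0.097). Its log2 fold change was 0.41 without sh-Scb replicate 2 and 0.46 without sh-SOX4 replicate 1. It was 0.19 without sh-Scb replicate 1 and 0.12 without sh-SOX4 replicate 2. UMPS, which joins the ring to PRPP and yields UMP, went from 32.1 and 31.9 CPM to 64.8 and 65.8 CPM, a fold change of 2.04 (log2 SE 0.067).

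CTP synthesis rested on 1 of its 2 genes at the level of counts. CTPS1, the isoform known to be needed for lymphocyte proliferation, was at 105 and 101 CPM in sh-Scb and at 182 in both sh-SOX4 libraries, a log2 fold change of 0.82 (SE 0.047). Only 6 and 8 counts (sh-Scb) and 5 and 2 counts (sh-SOX4) fell on CTPS2, too few to pass the filter, and no change was tested for it. CMPK1, which phosphorylates UMP and CMP, rose from 172 ± 6.78 to 227 ± 13.4 CPM (SD, n = 2), a log2 fold change of 0.41 (SE 0.054).

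The nucleoside diphosphate kinases NME1 and NME2, which make triphosphates for both routes, lie side by side on chromosome 17 (NME1 from 51153536 to 51162428, NME2 from 51165435 to 51171747, GRCh38). NME1 changed most of all members. It was at 28.0 and 25.8 CPM in the sh-Scb libraries and at 90.2 and 96.6 CPM in the sh-SOX4 libraries, a fold change of 3.47 (log2 1.80, SE 0.070) with an edgeR adjusted p of 7.01e-08. NME2 rose from 127 ± 3.41 to 203 ± 0.594 CPM (SD, n = 2), a log2 fold change of 0.68 (SE 0.046). The annotated readthrough gene NME1-NME2 covers 18.6% of the exonic bases of NME1 and 22.9% of those of NME2. Its counts were 1249 and 731 under sh-Scb against 2027 and 1619 under sh-SOX4, so reads shared among these 3 genes cannot be assigned with certainty. The NME1 window holds CACGTG at base 35 of the transcript (chr17:51153581-51153608, GRCh38.p14), shown because NME1 is the most changed member.
NME1: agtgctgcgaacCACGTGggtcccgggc

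In the dNTP branch only SAMHD1 was called among 6 genes, all of them tested. RRM1, the large subunit of ribonucleotide reductase, was at 338 and 319 CPM in sh-Scb and at 340 and 339 CPM in sh-SOX4, a log2 fold change of 0.048 (95% interval -0.049 to 0.15). RRM2, the small subunit whose level limits the enzyme in S phase, was at 850 and 817 CPM against 829 and 822 CPM, a log2 fold change of -0.014 (95% interval -0.099 to 0.072). TYMS, thymidylate synthase, was at 383 and 350 CPM against 367 and 363 CPM, a log2 fold change of -0.0065 (95% interval -0.12 to 0.10). For these 3 genes the difference between groups was smaller than the difference between the sh-Scb libraries, and the intervals leave out a change of 1.2-fold in either direction.

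DUT, which removes dUTP, was at 167 and 173 CPM in sh-Scb and at 176 in both sh-SOX4 libraries, a log2 fold change of 0.050 (95% interval -0.051 to 0.15). DTYMK, thymidylate kinase, was at 49.1 and 45.5 CPM against 53.5 and 52.2 CPM, a log2 fold change of 0.16 (edgeR adjusted p 0.0892). Over fits that left out 1 library each, the DTYMK value ran from 0.10 (without sh-Scb replicate 2) to 0.22 (without sh-Scb replicate 1). The direction of RRM1 and DUT depended on scaling: both were slightly lower with library totals, where RRM2 was called lower at -0.11. TPM is a level per exonic length that sums to the same total in each library. On this scale RRM2 went from 618 ± 12.3 to 529 ± 2.96 and TYMS from 585 ± 31.3 to 504 ± 3.49 (SD, n = 2). RRM1, DUT and DTYMK also had lower means in sh-SOX4. The summed TPM of the 6 dNTP genes was 1808 and 1735 in sh-Scb against 1554 and 1543 in sh-SOX4. For the purine genes the sums were 1315 and 1293 against 1567 and 1581 TPM, and for the tested pyrimidine genes 499 and 502 against 716 and 714 TPM. Over all tested members, sums were 4777 and 4694 against 5094 and 5135 TPM, a smaller rise than the 4768 and 4640 against 5973 and 6017 CPM. No called member changed the direction of its mean on the TPM scale, but the groups of PNP overlapped there (128 and 121 against 125 and 128 TPM). Of the exonic bases of TYMS, 46.6% also lie in ENOSF1 or TYMSOS on the other strand, and for the counting, use of strand was not given in the sources used here. Smaller parts of other members overlap annotated genes, with 20.2% for RRM2, 14.5% for DUT, 11.9% for PNP and 10.3% for SAMHD1. No dNTP gene fell in edgeR with TMM scaling, and the count was also 0 at an unadjusted p under 0.05 in edgeR, DESeq2 and limma-voom. None of these fits used library totals, with which RRM2 was called lower.

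SAMHD1, the hydrolase that breaks down dNTPs, was low throughout. Its counts were 51 and 27 under sh-Scb against 74 and 121 under sh-SOX4, or 1.35 and 0.896 CPM against 2.33 and 4.06 CPM. The groups did not overlap, but the sh-SOX4 libraries differed from each other nearly as much as the groups did. The fold change was 2.82 (log2 SE 0.35, edgeR adjusted p 0.00603), and the call was lost when sh-SOX4 replicate 2 was left out (edgeR adjusted p 0.0557).

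Markers of the cell cycle were read beside the dNTP genes, since several of these are known to be transcribed in S phase. Of 16 S phase genes, 6 rose and 4 fell (CDC6, SLBP, FEN1 and POLE), with a median log2 fold change of -0.014. POLE, a replicative polymerase, went from 240 ± 5.20 to 177 ± 2.39 CPM, MCM5 of the replicative helicase from 133 ± 0.348 to 177 ± 5.26 CPM and UHRF1 from 164 ± 4.41 to 219 ± 10.4 CPM (SD, n = 2). Of 9 G2/M genes, 5 fell (MKI67, TOP2A, CDK1, BUB1 and AURKB) and 3 rose (CCNB1, PLK1 and AURKA), with a median of -0.28. MKI67 had a log2 fold change of -0.52, CDK1 of -0.46 and CCNB1 of 0.59. The part of these shifts in the member levels was not tested.

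The salvage branch was split, with 4 genes higher, 2 lower and HPRT1 not called. The lower ones were TK1 and DCK, the kinases of this branch that salvage deoxynucleosides. TK1, thymidine kinase of the cytosol, was at 28.7 and 28.4 CPM in the sh-Scb libraries and at 11.4 and 11.7 CPM in the sh-SOX4 libraries, so 40.3% of the control level was left (log2 fold change -1.31, SE 0.0996, edgeR adjusted p of 4.13e-06). DCK, deoxycytidine kinase, which also activates drugs such as cytarabine, was at 149 and 157 CPM against 111 and 107 CPM, a log2 fold change of -0.49 (SE 0.050). Both groups were tight and apart in each gene. DCK also carries CACGTG, 116 bases before its start, and is printed (plus strand, chr4:70993521-70993550, GRCh38.p14) because it fell while holding the same letters as ATIC. The GENCODE model of DCK also begins upstream of the RefSeq start, at 70992538.
DCK: cgccccggccttCACGTGacctggcgtgcg

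The salvage enzymes that act on bases also differed, and the kinase UCK2 rose. APRT, which returns adenine to AMP, was at 25.5 and 28.8 CPM in sh-Scb and at 57.2 and 59.6 CPM in sh-SOX4, a fold change of 2.16 (log2 SE 0.083). HPRT1, which returns hypoxanthine and guanine, was at 63.6 and 64.2 CPM against 59.1 and 58.2 CPM; the groups did not overlap, but the log2 fold change of -0.12 had an edgeR adjusted p of 0.113. It was called lower with library totals (-0.22) and with the filter of 10 CPM (-0.19). UCK2, uridine-cytidine kinase, went from 97.1 and 97.2 CPM to 139 and 143 CPM, a log2 fold change of 0.54 (SE 0.048).

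ADA and PNP, the deaminase and phosphorylase that clear purine nucleosides whose build-up is toxic to T cells, were both higher. ADA was at 380 and 370 CPM in the sh-Scb libraries and at 580 and 611 CPM in the sh-SOX4 libraries, a log2 fold change of 0.67 (SE 0.043). PNP went from 131 ± 6.43 to 153 ± 2.11 CPM (SD, n = 2), a log2 fold change of 0.23 (SE 0.051) that was lost with library totals, at an edgeR adjusted p of 0.0594, and against a minimum of 1.2-fold.

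Isoforms and subunits were compared within each library, where a ratio does not depend on scaling. Per exonic length, the PRPS1 level was 1.16 and 1.04 times that of PRPS2 under sh-Scb, and 0.605 and 0.609 times under sh-SOX4. PRPS1 was thus slightly above PRPS2 in both controls and clearly below it in both sh-SOX4 libraries, although without length scaling sh-Scb replicate 2 already lay just below equality (log2 count ratio -0.017). IMPDH1 was at 0.188 and 0.209 times the IMPDH2 level in sh-Scb and at 0.113 and 0.128 times in sh-SOX4. NME1 was at 0.165 and 0.158 times NME2 in sh-Scb and at 0.341 and 0.363 times in sh-SOX4. RRM1 was at 0.507 and 0.498 times RRM2 in sh-Scb and at 0.523 and 0.526 times in sh-SOX4, a far smaller shift. Groups did not overlap in any of the 4 pairs. The ratios were not tested. An exact two-sided permutation test of 2 against 2 libraries cannot give a p under 0.333.

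**Figure D3:**
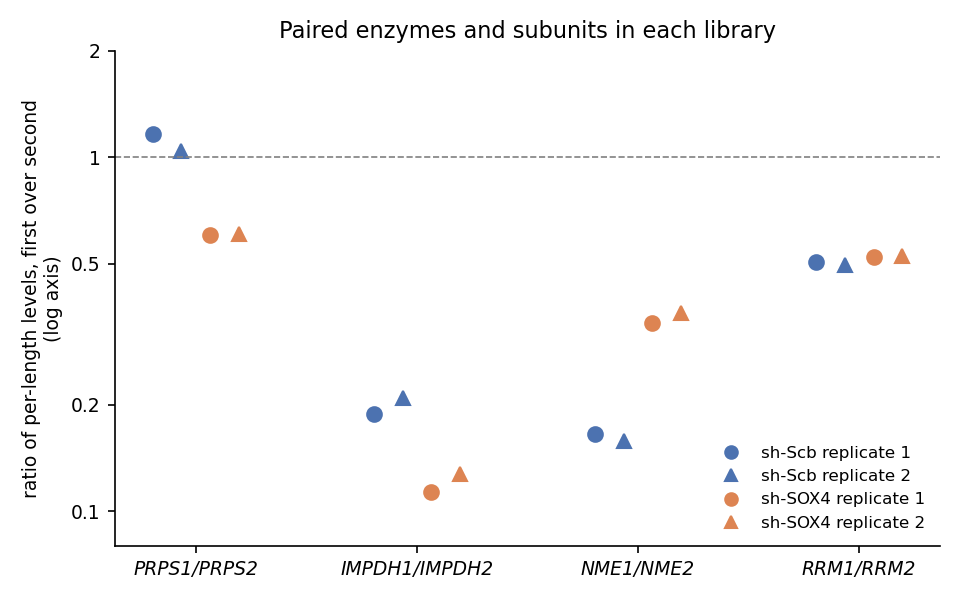
Ratio of the per-length levels of 4 pairs of isoforms or subunits in each library, first gene over second, on a log axis, with a dashed line at equal levels; circles are replicate 1 and triangles replicate 2. The PRPS1/PRPS2 ratio lies above 1 in both sh-Scb libraries and near 0.61 in both sh-SOX4 libraries, and the NME1/NME2 ratio is higher in sh-SOX4.

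Among the members, levels per length in the sh-Scb libraries ran from CTPS2 to RRM2. RRM2 was at 618 ± 12.3 TPM and TYMS at 585 ± 31.3 TPM (SD, n = 2), which lay within their spread of each other. ADA followed at 518 ± 5.34 TPM, and IMPDH2 at 316 ± 17.0 and RRM1 at 310 ± 10.2 TPM did not differ beyond their spread. This part of the order depends on the length used: per longest transcript, NME2 was at 440 ± 6.96, IMPDH2 at 405 ± 20.8 and RRM1 at 310 ± 9.43 TPM (SD, n = 2), while RRM2, TYMS and ADA were again the highest. At the low end, UMPS was at 16.7 ± 0.080 TPM and DHODH at 10.9 ± 1.30 TPM, with SAMHD1 at 0.393 ± 0.109 and CTPS2 at 0.152 ± 0.055 TPM well below all others (SD, n = 2).

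**Figure D4:**
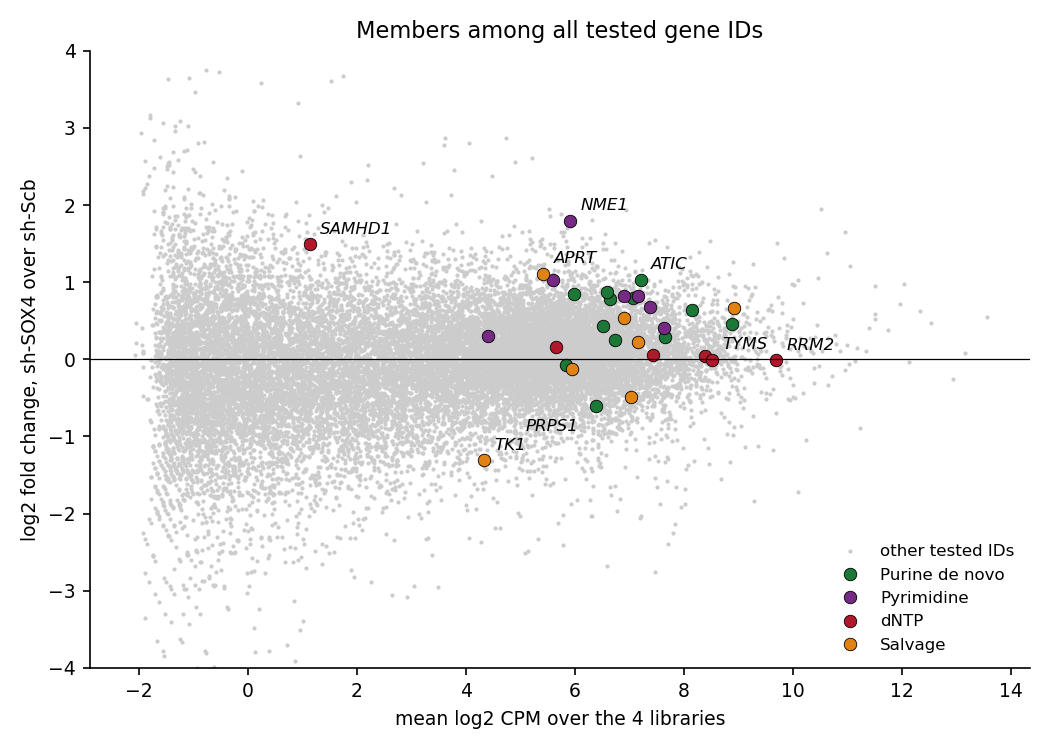
Mean log2 CPM over the 4 libraries (x axis) and log2 fold change, sh-SOX4 over sh-Scb (y axis), of the 32 tested members, coloured by branch, and of all other tested IDs (grey; 31 IDs beyond the y axis are not drawn). Most members lie above 0 within the range of other genes of like level, NME1 lies highest at 1.80 and TK1 lowest at -1.31.

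Over all members, the E-box letters CACGTG, which read the same on both strands, occurred in a promoter window of 6 of the 31 genes that had one (19.4%): PPAT, PAICS, ATIC, DHODH, NME1 and DCK. ADSL and IMPDH2 had no window. Over all 27305 genes with a window, 8.77% held these letters. Of the 6 genes, 4 rose, DCK fell and DHODH did not pass. That share of rising genes is near the 65.6% over all tested members. E2F-type letters (TTTGGCGC or TTTCCCGC, both strands) occurred in PRPS2, GART, TYMS, DUT and DCK, 16.1% of the 31 against 2.75% of all genes. Of these, PRPS2 and GART rose and DCK fell. The shares over all genes include genes not expressed in these cells, so they are not matched to the members for level. For TYMS and DUT, which were not called, the sites were as follows on the gene's strand (TYMS at chr18:657602-657631, DUT at chr15:48332143-48332172 and chr15:48332158-48332187, GRCh38.p14), with the letters or their reverse complement in capitals.
TYMS: cgcgggacggccGCGGGAAAaggcgcgcgg
DUT first site: ggggcggggctgGCGGGAAAtttcggtttt
DUT second site: ggaaatttcggtTTTGGCGCgctccctgcg
SOX-type letters (AACAAAG, both strands) occurred in none of the 31 against 6.35% of all genes, which says only that these letters are not in these windows. PPAT and PAICS share 1 site, genes with several starts have several windows, and a match is a description of letters, not of binding.

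Factors known to act on these genes were looked up as a list of 7, of which 3 rose (MYC, ATF4 and E2F3) and 3 fell (MAX, E2F1 and E2F2), with a median log2 fold change of 0.040. MYC was at 49.2 and 52.1 CPM in the sh-Scb libraries and at 192 and 194 CPM in the sh-SOX4 libraries, a fold change of 3.81. Its partner MAX went from 113 ± 7.13 to 88.1 ± 1.55 CPM (SD, n = 2). E2F2 went from 143 ± 2.69 to 92.7 ± 4.45 CPM and ATF4 from 417 ± 20.8 to 542 ± 1.97 CPM (SD, n = 2). Their part in the member levels was not tested.

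The folate cycle supplies the one-carbon units that GART and ATIC add to the purine ring and that TYMS uses for thymidylate. Of 15 tested genes of 16, 11 rose and 2 fell, with a median log2 fold change of 0.45. SLC25A32, which carries folate into mitochondria, rose from 34.8 ± 0.759 to 89.3 ± 2.76 CPM, and MTHFD1L, which makes formate there, from 45.1 ± 1.31 to 87.9 ± 1.08 CPM (SD, n = 2). Of the exonic bases of SLC25A32, 80.8% also lie in DCAF13 on the other strand or in another annotated gene, so its level is uncertain to that extent. GGH, which trims folate polyglutamates, fell from 68.6 ± 2.32 to 55.3 ± 2.93 CPM (SD, n = 2). SHMT1 and ALDH1L2 did not pass, with log2 fold changes of 0.060 and -0.61.

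Other kinases and interconversion enzymes were mixed, with 9 of 23 tested genes higher and 7 lower of 27 listed. AK4, a mitochondrial adenylate kinase, fell from 155 ± 1.67 to 46.1 ± 2.74 CPM, while DCTD, which deaminates dCMP toward thymidylate, rose from 59.1 ± 0.893 to 94.5 ± 1.13 CPM and the mitochondrial kinase NME4 from 63.1 ± 4.18 to 103 ± 2.80 CPM (SD, n = 2). The median log2 fold change was -0.036. RRM2B, the ribonucleotide reductase subunit of non-dividing cells, fell, with a log2 fold change of -0.21 (edgeR adjusted p 0.0197); it was chosen after its value was seen, beside RRM1 and RRM2.

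Other salvage and transport genes were also mixed, with 15 tested of 20 and a median log2 fold change of 0.13. The 4 that rose were ADK, UPRT, SLC29A1 and SLC25A33, and the 5 that fell were TK2, SLC29A2, SLC29A4, SLC28A2 and SLC25A36. SLC25A36, a mitochondrial pyrimidine nucleotide carrier, fell from 261 ± 11.5 to 152 ± 2.04 CPM (SD, n = 2). Of the SLC29 family, SLC29A2 fell from 20.9 ± 1.04 to 7.75 ± 0.876 CPM (SD, n = 2) and SLC29A4 from 35.2 and 38.3 to 18.2 and 20.5 CPM, while SLC29A1 rose. TK2, the mitochondrial counterpart of TK1, had a log2 fold change of -0.28 (SE 0.086). DGUOK, another mitochondrial deoxynucleoside kinase, was not called, at 0.13 (SE 0.071). MTAP, which frees adenine from methylthioadenosine, was close to absent, at 6, 6, 4 and 3 counts over the libraries.

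Genes of nucleotide breakdown and pool cleaning went up or did not pass: 9 of 15 tested genes of 21 rose and none fell in edgeR's test, nor in DESeq2 or limma-voom. At an unadjusted p under 0.05, the count of lower genes was 1 in edgeR, 0 in DESeq2 and 1 in limma-voom. DCTPP1, which hydrolyses modified dCTP, rose from 29.6 ± 1.28 to 61.4 ± 1.18 CPM, ITPA, which removes ITP, from 14.3 ± 2.68 to 25.7 ± 0.276 CPM, and NT5E, the surface nucleotidase CD73, from 4.23 ± 0.116 to 8.44 ± 0.634 CPM (SD, n = 2). Of the exonic bases of DCTPP1, 42.1% also lie in ZNF771 on the other strand, so its level is uncertain to that extent. The median log2 fold change of the list was 0.29. As background for all these lists, 44.1% of tested IDs were called, 23.2% as higher and 20.9% as lower. Among IDs with at least 10 CPM in 2 libraries, 66.2% were called, with 33.1% in each direction. Shares called were 62.5% for S phase, 60.0% for other salvage and transport, 60.0% for breakdown and 69.6% for other kinases, near that second share. The folate (86.7%), G2/M (88.9%) and regulator (85.7%) lists lay above it. The lists themselves were not held to 10 CPM.

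**Figure D5:**
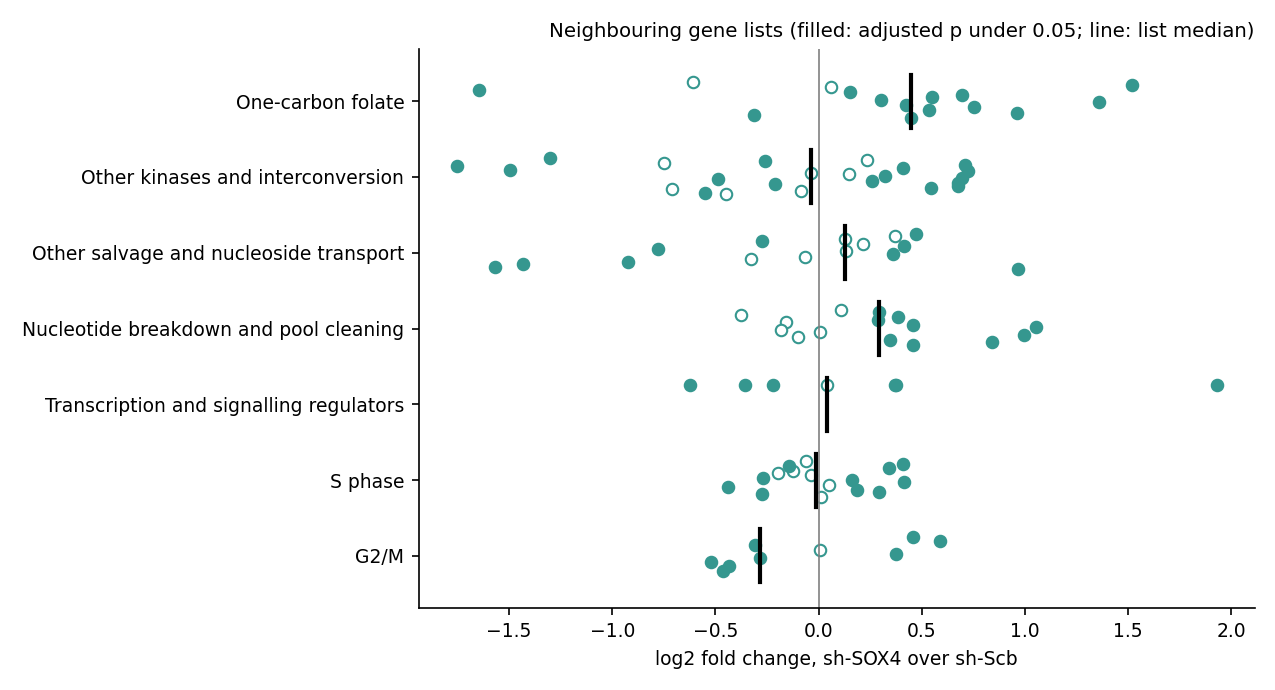
log2 fold change, sh-SOX4 over sh-Scb, of each tested gene (points) of 7 neighbouring lists (rows), with filled points at an adjusted p under 0.05, open points without a call and a black line at the list median. The folate list lies mostly to the right of 0, with its median at 0.45, and MYC, at 1.93, stands apart from the other regulators.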

How the data were processed

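RNA-seq gene counts of 4 libraries were analysed. The deposited values are raw counts, whole numbers for each Ensembl gene ID, with 1 column per library. HISAT2 2.2.0, StringTie and hg38 are named in the submitters' processing notes; their roles, the annotation release, strand use and filters were not given in the sources used here. The control columns are named NC; they were taken as sh-Scb because the others name SOX4. Symbols, positions, exon lengths and overlaps came from GENCODE 29 (GRCh38) and a table of gene names.

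In edgeR 4.0.16 (R 4.3.3), IDs passed filterByExpr with a minimum count of 10 and a minimum total of 15. TMM factors scaled the libraries, and a robust quasi-likelihood model compared the groups. P-values were Benjamini-Hochberg adjusted over 19897 IDs. The SE is the log2 fold change divided by the root of F, and 95% intervals use the model's degrees of freedom, of which 2 are residual. Intervals and floors of 3 counts cover the spread or counting error between these samples only, which may be technical. Replicates differed by more than sampling noise (median chi-square 1.70 and 1.59 against 0.455), so each counted as 1. TPM used the union of exons. The alternatives in the closing section include DESeq2 1.42.0 and limma 3.58.1. The fit was tested on simulated data. Members and lists were chosen with earlier results of these data known. Named were all members, SOX4, MYC and, of each other list, the 3 genes with the smallest adjusted p; further genes were named where 5 or fewer were called in a direction or did not pass, or after their values were seen. Some items that this rule would name are not reported here. Figures used matplotlib 3.10.9.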

Additional observations from a re-analysis of the deposited data

How the results depend on the processing

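Of the 24 calls among the members, all 24 kept call and direction with median-ratio size factors, no filter, DESeq2, limma-voom and counts thinned to 29093287 per library. The labels give both groups the same replicate numbers; deviations of same-numbered libraries correlated at -0.0103, so the numbers were not taken to pair them, and with a replicate block the counts were again 21 higher and 3 lower, with 8378 of all IDs called. Against a minimum of 1.2-fold, 5348 of all IDs were called and PRPS2, GMPS and PNP lost their call. With library totals PNP was lost and HPRT1 and RRM2 were called, so that 5 members were lower, 1 of them in the dNTP branch; with at least 10 CPM in 2 libraries SAMHD1 was not tested, which left 0 higher in the dNTP branch, and HPRT1 was called. Without 1 library, the dNTP branch had 0 to 2 genes higher, as SAMHD1 was lost without sh-SOX4 replicate 2 and DTYMK was called without sh-Scb replicate 1. DHODH was called without sh-Scb replicate 2 and without sh-SOX4 replicate 1. Uncalled log2 fold changes turned sign for RRM1 (-0.051 with library totals, -0.015 with 10 CPM), DUT (-0.049 and -0.014 likewise) and, over fits that left out 1 library each, RRM2 (-0.047 to 0.019), TYMS (-0.073 to 0.061) and IMPDH1 (-0.19 to 0.040); RRM2 and TYMS were positive without sh-Scb replicate 1 and IMPDH1 without sh-SOX4 replicate 1. The causes were not tested. Per-length levels depend on the transcript assumed: with the longest transcript, NME2 in sh-Scb was at 440 in place of 191 TPM and NME1 at 48.9 in place of 30.8 TPM, which placed NME2 above IMPDH2 and RRM1. The 2 residual degrees of freedom and unknown separation of cultures limit every p-value.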
